A study of Mus musculus with 6 samples.

Results

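The gene set described here holds 45 mouse genes of cell-matrix adhesion: 18 integrin subunits and 27 genes of focal adhesions and of actin-linking LIM proteins. All 45 were among the 21938 genes measured. The list was drawn up with the mutant-against-control comparison in view and chosen on the lower CPM values of Zyx and Ablim3 in the mutant libraries, so the difference of its members between the genotypes is given as a description. Counts of members past a threshold are printed beside the share of all genes past it and test nothing about the set.

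Libraries were sequenced from RNA of the soft palate, the muscular rear part of the roof of the mouth, at E14.0. The 3 mutant libraries (replicates 5, 6 and 7) came from Osr2-Cre;b-cateninfl/fl embryos, in which a recombinase driven from Osr2, a transcription factor gene of palatal mesenchyme, deletes floxed b-catenin; cells without Cre keep the gene. The 3 control libraries (replicates 1, 2 and 3) came from b-cateninfl/fl embryos according to the extraction protocol, while the genotype and strain fields call them wild type. By the protocol both groups carried the floxed alleles and only the mutants carried Cre, so effects of Cre and of the deletion cannot be told apart. The labels do not say whether a library is 1 embryo or a pool, so every spread below is a spread between libraries.

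Integrins are receptors built from an alpha and a beta subunit that span the cell membrane and bind matrix proteins such as fibronectin, laminin and collagen. Talin and kindlin bind the beta tail and activate the receptor, and vinculin, alpha-actinin, filamin, ILK with its partners, and LIM proteins such as zyxin connect it to actin filaments at focal adhesions. b-catenin itself acts both at cadherin junctions, which join cells to each other, and in canonical Wnt signalling, and integrin adhesions are known for their part in the attachment of muscle fibres, epithelia and migrating mesenchyme.

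The libraries held about 10008228 to 15077138 counted reads, as estimated from the step between low values, so a gene without a read could lie at up to 0.199 to 0.2998 CPM (3 reads; counting error only). CPM is the number of reads of a gene scaled to a common total of counted reads per library. Ctnnb1, which encodes b-catenin (chr9:120929216-120960507 on GRCm38, the build of all positions here), had 585, 633 and 582 CPM in mutant replicates 5, 6 and 7, against 699, 784 and 671 CPM in control replicates 1, 2 and 3. Its groups did not overlap, but its log2 change of -0.26 ± 0.10 (SE) did not pass the threshold, an adjusted p below 0.05 over all genes in limma. The gene was still at 600 ± 29.1 CPM in the mutants (SD, n = 3), against 718 ± 59.0 CPM in controls. These values are per gene, so any reads from deleted alleles cannot be told apart from reads of intact ones. They do not measure how much intact transcript remained. Osr2 averaged 16.1 ± 3.22 CPM in mutants and 46.9 ± 11.2 CPM in controls (SD, n = 3 each) and passed the threshold, with a log2 change of -1.47 ± 0.20; it did not pass without mutant replicate 5, 6 or 7 or without control replicate 1 or 3. In bulk tissue fewer cells of a type and less RNA per cell cannot be told apart. Only the mutants carried the Cre driven from Osr2, so any effect of that Cre on the Osr2 level cannot be told apart either. The labelled tissue held markers of palatal mesenchyme, with Prrx1 at a mean of 312 CPM in mutants and 339 CPM in controls and Pdgfra at 303 CPM in mutants and 342 CPM in controls. These 2 do not stand for the list of 12, of which 11 had a log2 change below 0, with a median of -0.37. In limma 4 of the 12 (33.3%) had an unadjusted p below 0.05, all lower in mutants, beside 21.4% of all genes in either direction. Of all 21938 genes 1771 had that p and were lower in mutants, and 2931 were higher.

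The genes of the set were widely present. In all 6 libraries 39 of the 45 exceeded 10 CPM, 44 exceeded 1 CPM, and 41 had a mean level above the median of all genes, 10.2 CPM. No filter on low values was applied, so all 45 entered the fit. The 1 gene below 1 CPM in some libraries was Lims2, encoding the second PINCH protein, with 0.845, 0.0760 and 0.331 CPM in the mutant libraries and 1.13, 1.12 and 0.710 CPM in the controls, levels near the value of a few reads. Levels of different genes can be compared only per length, and CPM per kilobase of annotated exon is used for that.

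The levels of the genes relative to each other within the control libraries are not what they were chosen on. In those libraries Itgb1 was the highest member per kilobase. This gene encodes the beta1 subunit, the partner of most alpha subunits, and had 138 ± 16.5 CPM per kilobase (SD, n = 3 control libraries, as for the levels that follow). Flna, encoding the actin crosslinker filamin A that binds beta tails, followed with 104 ± 12.5, Actn4, encoding an alpha-actinin, with 49.4 ± 3.60, and Itgb5, encoding the vitronectin-binding beta5 subunit, with 39.8 ± 5.54 CPM per kilobase. These 3 steps and the step to Actn1 each separated all 3 libraries of the neighbouring genes. The order depends on the length used: by the longest transcript Itgb5 stood at 43.1, Actn1 at 42.0 and Vcl at 41.9 CPM per kilobase, so the step from Itgb5 to Actn1 closed. By exon length, neighbours further down were mostly indistinguishable: of the 44 pairs of neighbours in the order, 35 overlapped between libraries and 9 did not, the other 5 being Vcl over Ilk, Fermt2 over Parva, Tns3 over Zyx, Itga7 over Itga10 and Itga10 over Lims2. Zyx stood at 15.9 ± 1.10 CPM per kilobase, above the members' median of 10.1, and Itga7, Itga10 and Lims2 closed the list at 1.09, 0.77 and 0.32.

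**Figure D1:**
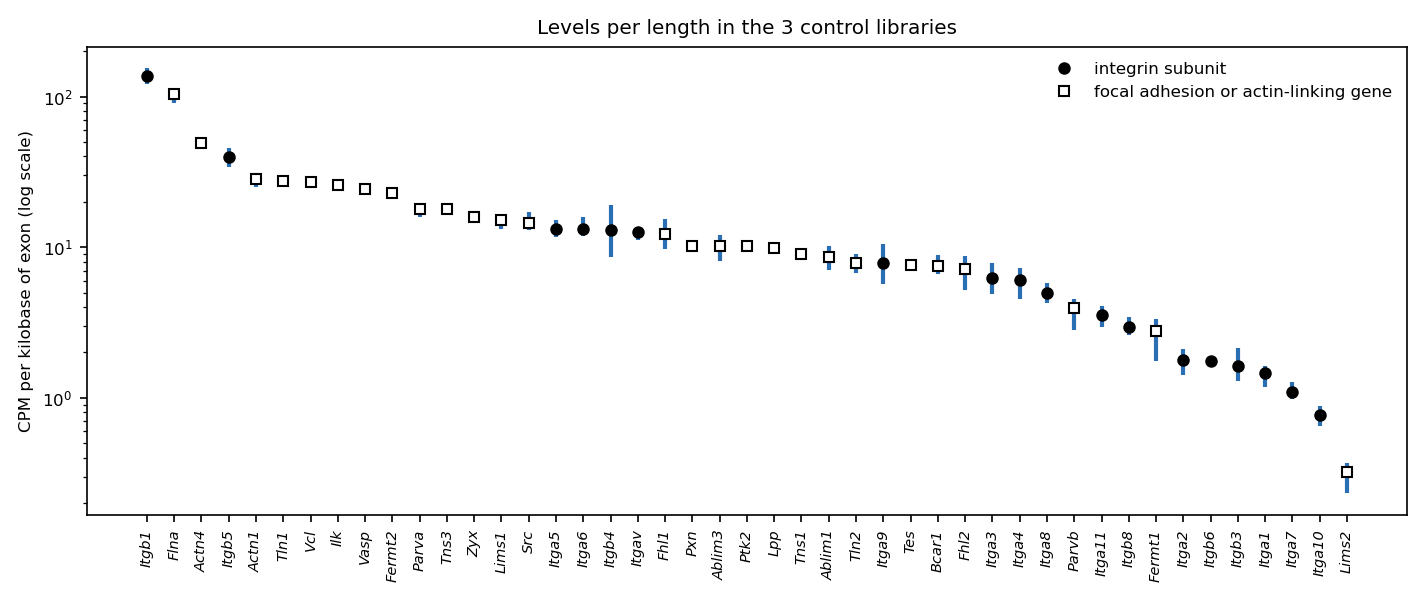
Level of each of the 45 genes in the 3 control libraries, in CPM per kilobase of exon on a log axis, ordered from the highest mean to the lowest; symbols are means and bars run from the lowest to the highest library. Itgb1 at 138 and Flna at 104 CPM per kilobase stand above the other 43 genes, and Lims2 at 0.32 stands lowest.

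Across all 45 genes the median log2 change, mutant minus control, was -0.17 on the log2(CPM + 1) scale, beside 0.04 over all 21938 genes, with 34 members below 0 and 11 above. By limma's test with Benjamini-Hochberg adjustment over all genes, 3 of the 45 (6.67%) passed an adjusted p of 0.05, namely Zyx, Ablim3 and Ilk, and all 3 were lower in the mutants. Of all genes 0.479% passed in either direction and 0.283% were lower in the mutants. At an unadjusted p below 0.05 there were 15 members (33.3%), beside 21.4% of all genes. The 3 mutant libraries lay below all 3 controls for 16 members (35.6%) and above them for 3 (6.67%), where all genes gave 10.8% and 17.1%, and the groups overlapped for the other 26. Because the members were picked on this difference, nothing is read from these counts against those of all genes. The calls depended on single libraries: no member passed without mutant replicate 5, 6 or 7 or without control replicate 1 or 3, and without control replicate 2 there were 4, Itga4 in addition. In limma none passed with a prior variance without trend (11 at an unadjusted p below 0.05), or with sex, read from Xist, as a covariate (15 unadjusted). Over all genes 2 passed without mutant replicate 7, and 0 without mutant replicate 5 or 6 or control replicate 1 or 3. Under the alternatives the log2 change ran from -0.90 to -0.80 for Zyx, -1.49 to -1.21 for Ablim3 and -0.66 to -0.56 for Ilk. Their highest adjusted p in limma was 0.13, 0.13 and 0.182.

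**Figure D2:**
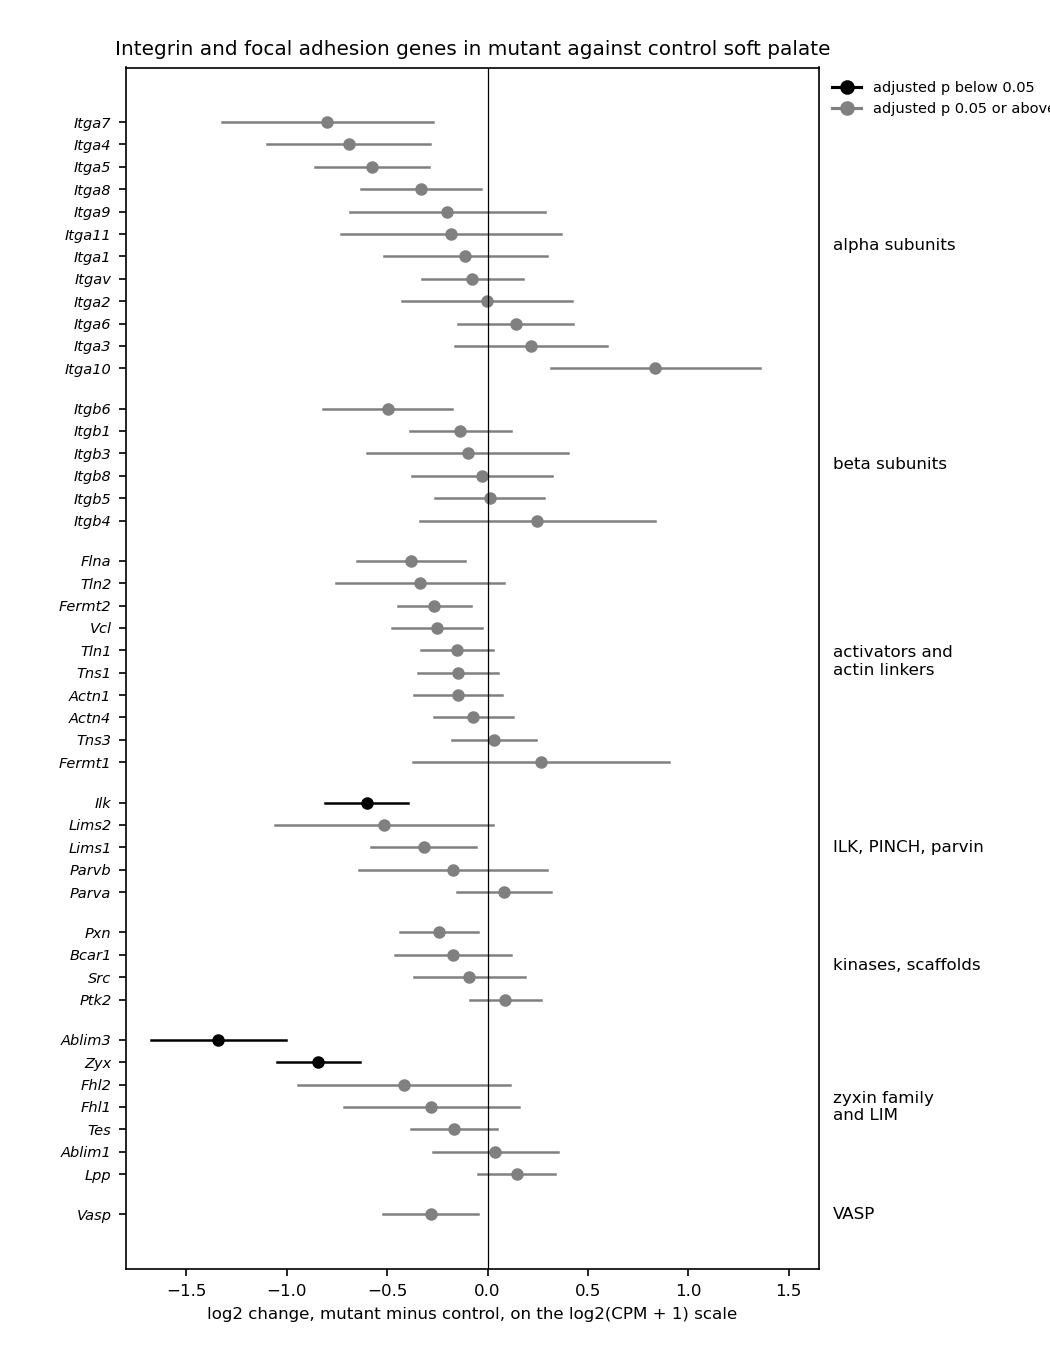
Log2 change of each gene, mutant minus control, on the log2(CPM + 1) scale, grouped by role; points are estimates from 3 mutant and 3 control libraries, bars are 95% intervals, and black marks an adjusted p below 0.05. Ablim3, Zyx and Ilk are the black points, at -1.34, -0.84 and -0.60, and Itga10 at 0.83 is the farthest point on the side higher in mutants.

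The alpha subunits set which matrix protein a receptor binds, and none of the 12 passed the threshold in limma, with 5 at an unadjusted p below 0.05 and a median log2 change of -0.15. The 5 are 41.7% of the 12, beside 21.4% of all genes. In 4 of the 12 (33.3%) every mutant library lay below every control, and in 1 (8.33%) above. All genes gave 10.8% and 17.1%. Itga5, the alpha subunit of the fibronectin receptor (chr15:103344286-103366763), had 45.8, 46.6 and 38.4 CPM in mutants, against 75.1, 64.1 and 57.7 CPM in controls. Its log2 change was -0.58 ± 0.12, and even the highest mutant library stayed well below the lowest control. Itga4, whose product binds fibronectin and the cell adhesion molecule VCAM-1 (chr2:79255426-79333123), had 58.7, 51.5 and 43.3 CPM in mutants, against 102, 63.4 and 87.1 CPM in controls, with a log2 change of -0.69 ± 0.18. Control replicate 2 lay close to the mutant libraries, and the other 2 controls lay well above them.

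Laminin is bound by the products of Itga3, Itga6 and Itga7. Itga7, the alpha subunit best known from skeletal muscle (chr10:128933818-128958282), had 5.79, 5.40 and 3.05 CPM in mutants, against 7.92, 10.4 and 8.10 CPM in controls, a log2 change of -0.80 ± 0.23 at a low level. Itga6, which pairs with beta4 in the hemidesmosomes of epithelia, had 132, 137 and 121 CPM in mutants, against 107, 143 and 107 CPM in controls, with a log2 change of 0.14 ± 0.13. Its control replicate 2 was the highest of the 6 libraries and its other controls the lowest, so the groups overlapped. Itga3 overlapped likewise, with 36.2, 44.8 and 42.2 CPM in mutants, against 27.8, 44.5 and 34.7 CPM in controls.

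Itga10, the alpha subunit of a collagen receptor known from cartilage (chr3:96645584-96664519), ran the other way. It had 11.1, 6.58 and 6.50 CPM in mutants, against 4.60, 3.96 and 3.37 CPM in controls, and a log2 change of 0.83 ± 0.23, not past the threshold. Mutant replicate 5 stood well above the other mutants, and the groups did not overlap. Summed markers of cartilage and bone were highest in the same library, at 1128, 736 and 895 CPM in mutants, against 717, 352 and 551 CPM in controls. None of the 9 measured markers passed the threshold in limma, and none was near 0 in all libraries. At an unadjusted p below 0.05 there was 1 (11.1%), beside 21.4% of all genes. The match of the sum with Itga10 in its highest library rests on Ibsp. Without Ibsp the other 8 markers summed to 556, 430.2 and 680 CPM in mutants, against 671, 327 and 320 CPM in controls. Mutant replicate 7 was then the highest, and the groups overlapped. The part of these markers in the Itga10 difference was not tested. An annotated transcript on the same strand, Gm42957, shares 33.5% of the exon bases of Itga10, and how reads were split between them was not given in the sources used here.

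The other collagen-binding subunits, Itga1, Itga2 and Itga11, overlapped between the groups, with log2 changes from -0.18 to 0.00. Itga8, for the nephronectin receptor, lay lower in every mutant library, by a narrow gap, with 26.2, 29.1 and 31.4 CPM in mutants, against 36.2, 42.5 and 31.5 CPM in controls. Itgav, the alpha subunit of the vitronectin receptors, had 128 ± 12.7 CPM in mutants and 135 ± 14.3 CPM in controls, and Itga9, whose product binds tenascin, 51.3 ± 9.53 CPM in mutants and 60.4 ± 19.0 CPM in controls (SD, n = 3 each); both overlapped. As a share of the summed level per kilobase of the 12 alpha subunits, Itga5 made up 13.6 ± 0.64% in mutants and 18.3 ± 1.42% in controls, and Itga6 22.2 ± 1.24% in mutants and 18.1 ± 2.64% in controls. By the length of the longest transcript in place of all exons, the shares were 10.5 ± 0.43% in mutants and 14.4 ± 1.35% in controls for Itga5, and 32.0 ± 1.52% in mutants and 26.7 ± 3.48% in controls for Itga6. The order of Itga5 and Itga6 in controls thus depended on the length used, while the direction of each between the groups did not. The sum itself was 65.1 ± 5.69 CPM per kilobase in mutants and 72.8 ± 7.54 CPM per kilobase in controls (SD, n = 3 each), a gap within the spread between libraries.

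Of the 6 beta subunits none passed the threshold in limma, and their median log2 change was -0.06. At an unadjusted p below 0.05 there was 1 (16.7%), beside 21.4% of all genes. Itgb1 had 546, 492 and 492 CPM in mutants, against 629, 564 and 494 CPM in controls, a log2 change of -0.13 ± 0.11 with overlapping groups. Itgb5 had 144, 154 and 128 CPM in mutants, against 161, 143 and 121 CPM in controls, a log2 change of 0.01 ± 0.12. These most abundant beta subunits kept close shares of the summed beta level per kilobase: Itgb1 67.4 ± 2.40% in mutants and 69.9 ± 2.35% in controls, and Itgb5 21.5 ± 1.56% in mutants and 20.2 ± 0.86% in controls (SD, n = 3 each).

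All genes gave 10.8% with every mutant library below every control, beside 16.7% of the beta subunits. Itgb6, encoding a beta subunit largely restricted to epithelia (chr2:60598292-60722643), was the 1 beta subunit whose groups did not overlap. It had 8.80, 7.83 and 9.21 CPM in mutants, against 11.4, 13.0 and 13.3 CPM in controls, with a log2 change of -0.50 ± 0.14. Itgb4, the hemidesmosome subunit, had 82.9, 115 and 116 CPM in mutants, against 60.8, 133 and 81.0 CPM in controls, and its coefficient of variation of 40.8% in controls was the highest of the 45 genes. The summed epithelial markers followed the same order as Itgb4 in controls, with 1901, 2707 and 2531 CPM in mutants, against 1409, 2254 and 2006 CPM in controls. None of the 12 passed the threshold in limma, and none was near 0 in all libraries. At an unadjusted p below 0.05 there were 3 (25%), all higher in mutants, beside 21.4% of all genes in either direction. Of these 12 markers 11 had a log2 change above 0 and 1 had a log2 change below 0, at -0.43. The part of epithelial RNA in Itgb6 and Itgb4 was not tested. Itgb3 and Itgb8 overlapped between the groups, with log2 changes of -0.10 and -0.03.

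Among the 10 activators and actin linkers none passed the threshold in limma, and the median log2 change was -0.15. At an unadjusted p below 0.05 there were 3 (30%), beside 21.4% of all genes. A further count, of genes lower in every mutant library, gave 4 (40%), beside 10.8% of all genes. Flna (chrX:74223461-74249820) had 779, 783 and 685 CPM in mutants, against 1017, 1072 and 847 CPM in controls, with a log2 change of -0.38 ± 0.12. Fermt2, encoding the kindlin of mesenchymal cells, had 103, 98.2 and 96.8 CPM in mutants, against 122, 115 and 121 CPM in controls, and Vcl, encoding vinculin, had 194, 201 and 163 CPM in mutants, against 217, 228 and 216 CPM in controls. Both gaps were small, with log2 changes of -0.26 ± 0.08 and -0.25 ± 0.10. Tln1, encoding the broadly expressed talin, had 237, 252 and 236 CPM in mutants, against 263, 273 and 270.1 CPM in controls, and its coefficient of variation of 1.91% in controls was the lowest of the 45 genes. Actn4 had 280.3, 289 and 293 CPM in mutants, against 322, 307 and 278 CPM in controls, with overlapping groups. Fermt1, the kindlin of epithelia, and Tns3, encoding a tensin, lay slightly above 0 at 0.27 and 0.03, and Tln2, Tns1 and Actn1 slightly below at -0.34, -0.15 and -0.15, all 5 with overlapping groups. Vcl shares 2090 bases, 25.5% of its exon bases, with exons of Ap3m1 on the opposite strand, which could hold reads of either gene if the counting did not use strand. Ap3m1 was also lower in every mutant library, with 43.4, 42.8 and 41.0 CPM in mutants, against 47.9, 44.6 and 46.0 CPM in controls.

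Vinculin and other actin-linking genes are known targets of SRF, a transcription factor that binds the CArG box and is switched on by actin polymerization through its MRTF cofactors. The promoter sequences of RefSeq on GRCm38.p6, 250 bases before to 50 after a start, were available for 35 of the 45 genes (48 windows) and for 12979 genes of the table. A CArG box on either strand was found in 5 of the 35 members (14.3%) and in 1.58% of all genes with a window: Fermt2, Fhl1, Fhl2, Itgb6 and Vcl. The stretches below are shown because they place that motif next to genes of 3 different roles. Each is 50 bases, written 5′ to 3′ on the strand of the gene, with the CArG box in capitals. Fhl2 has the motif at 2 separate starts, and the boxes begin between 31 and 227 bases before a start. Fhl1 and Itgb6 also have a window at another start, at chrX:56786277-56786576 and chr2:60722554-60722853, and no CArG box was found there.
Fermt2, chr14:45530240-45530289, minus strand: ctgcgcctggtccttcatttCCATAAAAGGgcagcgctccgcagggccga
Fhl1, chrX:56779561-56779610, plus strand: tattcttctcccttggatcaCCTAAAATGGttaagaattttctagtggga
Fhl2, chr1:43163963-43164012, minus strand: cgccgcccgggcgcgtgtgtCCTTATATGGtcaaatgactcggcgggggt
Fhl2, chr1:43196828-43196877, minus strand: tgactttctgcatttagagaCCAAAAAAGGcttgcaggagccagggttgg
Itgb6, chr2:60673714-60673763, minus strand: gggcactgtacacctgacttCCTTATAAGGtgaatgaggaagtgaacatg
Vcl, chr14:20929151-20929200, plus strand: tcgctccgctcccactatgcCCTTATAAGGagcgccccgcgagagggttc
No CArG box was found in the windows of Zyx, Ilk, Itga5 and Flna, and no window of Ablim3 was among the 48. Other short motifs were near their background: GGAATG, bound by TEAD factors, in 7 of 35 members (20%) and 14.9% of genes, CTTTGAT, the core bound by TCF/LEF partners of b-catenin, in 1 (Vasp, 2.86%) and 3.11% of genes, and CANNTG, the E-box of myogenic factors, in 25 (71.4%) and 68.8% of genes. Both strands were searched for each. These are matches of letters in one window and no measure of binding.

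ILK, a pseudokinase, binds the beta1 tail and holds PINCH and parvin proteins in 1 complex. Ilk (chr7:105736592-105742925) fell, with 45.3, 50.3 and 43.5 CPM in mutants, against 72.3, 70.4 and 69.6 CPM in controls. The controls lay close together and well clear of the mutants, and the log2 change was -0.60 ± 0.09. On the opposite strand, exons of Taf10 overlap 76.8% of the exon bases of Ilk and those of Rrp8 12.9%, and whether strand was used in counting was not given in the sources used here. Taf10, encoding a general transcription factor subunit, had 25.3, 25.6 and 22.9 CPM in mutants, against 29.8, 31.9 and 29.9 CPM in controls. Taf10 was thus also lower in every mutant library, at less than the difference of Ilk in CPM, and if strand was not used their reads cannot be told apart in the shared bases.

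None of the partners of Ilk passed the threshold in limma, with 1, Lims1, at an unadjusted p below 0.05. Lims1, encoding the main PINCH protein, had 64.4, 59.7 and 52.4 CPM in mutants, against 75.1, 65.1 and 80.7 CPM in controls, without overlap. Parva, encoding alpha-parvin, had 202, 182 and 197 CPM in mutants, against 197, 160.2 and 192 CPM in controls, a log2 change of 0.08 ± 0.10. Parvb overlapped at 15.1 ± 3.00 CPM in mutants and 17.3 ± 4.20 CPM in controls (SD, n = 3 each). The complex thus held 1 gene past the threshold, 1 below without overlap and 3 that overlapped. Ilk and Lims1, the 2 without overlap, were also those at an unadjusted p below 0.05 in limma. They are 40% of the 5 genes. All genes gave 10.8% lower without overlap and 21.4% at that p.

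Signals from focal adhesions run through FAK and Src kinases and the scaffolds paxillin and p130Cas. Pxn, encoding paxillin, had 69.3, 69.6 and 73.3 CPM in mutants, against 79.9, 89.1 and 82.8 CPM in controls, and Bcar1, encoding p130Cas, 30.2, 29.0 and 29.8 CPM in mutants, against 31.0, 40.3 and 30.3 CPM in controls. Both lay lower in every mutant library, Bcar1 by less than 1 CPM at the nearest libraries. Ptk2, encoding FAK, was above in every mutant library by less than 1 CPM at the nearest libraries, with 130.0, 127 and 125 CPM in mutants, against 119.9, 115 and 124 CPM in controls. Src had 58.1, 63.4 and 56.4 CPM in mutants, against 56.8, 75.4 and 58.9 CPM in controls, and overlapped. None of the 4 passed the threshold in limma, and their median log2 change was -0.13. At an unadjusted p below 0.05 there was 1, Pxn (25%), beside 21.4% of all genes. Without overlap 50% lay lower in mutants and 25% higher, beside 10.8% and 17.1% of all genes.

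The zyxin family and other LIM proteins held the 2 largest negative log2 changes of the 45 genes. Zyxin sits at focal adhesions and stress fibres and recruits Ena/VASP proteins where actin is under strain. Zyx (chr6:42349630-42360213) fell to 49.4, 46.7 and 45.9 CPM in mutants, against 79.5, 91.3 and 86.5 CPM in controls, a log2 change of -0.84 ± 0.09. Its libraries were tight in both groups, with means of 47.3 ± 1.84 CPM in mutants and 85.8 ± 5.92 CPM in controls (SD, n = 3 each), and 4.38% of its exon bases are shared with Epha1 on the opposite strand. Ablim3, encoding an actin-binding LIM protein, fell to 18.3, 17.5 and 16.4 CPM in mutants, against 54.5, 36.6 and 47.3 CPM in controls, a log2 change of -1.34 ± 0.15. The mutant libraries were nearly level, and the controls were spread, with replicate 2 the lowest.

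The relatives of Zyx and Ablim3 did not show such differences. Lpp, the closest relative of Zyx in the set and itself a focal adhesion protein gene, had 247, 236 and 234 CPM in mutants, against 206, 232 and 210.1 CPM in controls, and lay higher in every mutant library at a log2 change of 0.15 ± 0.08, not past the threshold. Ablim1, the paralog of Ablim3, had 111, 108 and 94.2 CPM in mutants, against 83.8, 102 and 122 CPM in controls, and overlapped. Tes, encoding testin, overlapped at -0.17 ± 0.09. Fhl1, abundant in muscle, had 44.2, 37.5 and 29.4 CPM in mutants, against 57.6, 36.2 and 42.4 CPM in controls, and Fhl2, encoding a LIM cofactor also known to bind b-catenin, 11.7, 11.1 and 7.22 CPM in mutants, against 9.84, 16.7 and 14.6 CPM in controls. Both overlapped. Vasp, the zyxin partner that lengthens actin filaments, had 49.6, 58.1 and 48.4 CPM in mutants, against 58.8, 64.2 and 67.3 CPM in controls, without overlap and with a log2 change of -0.28 ± 0.10, not past the threshold.

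**Figure D3:**
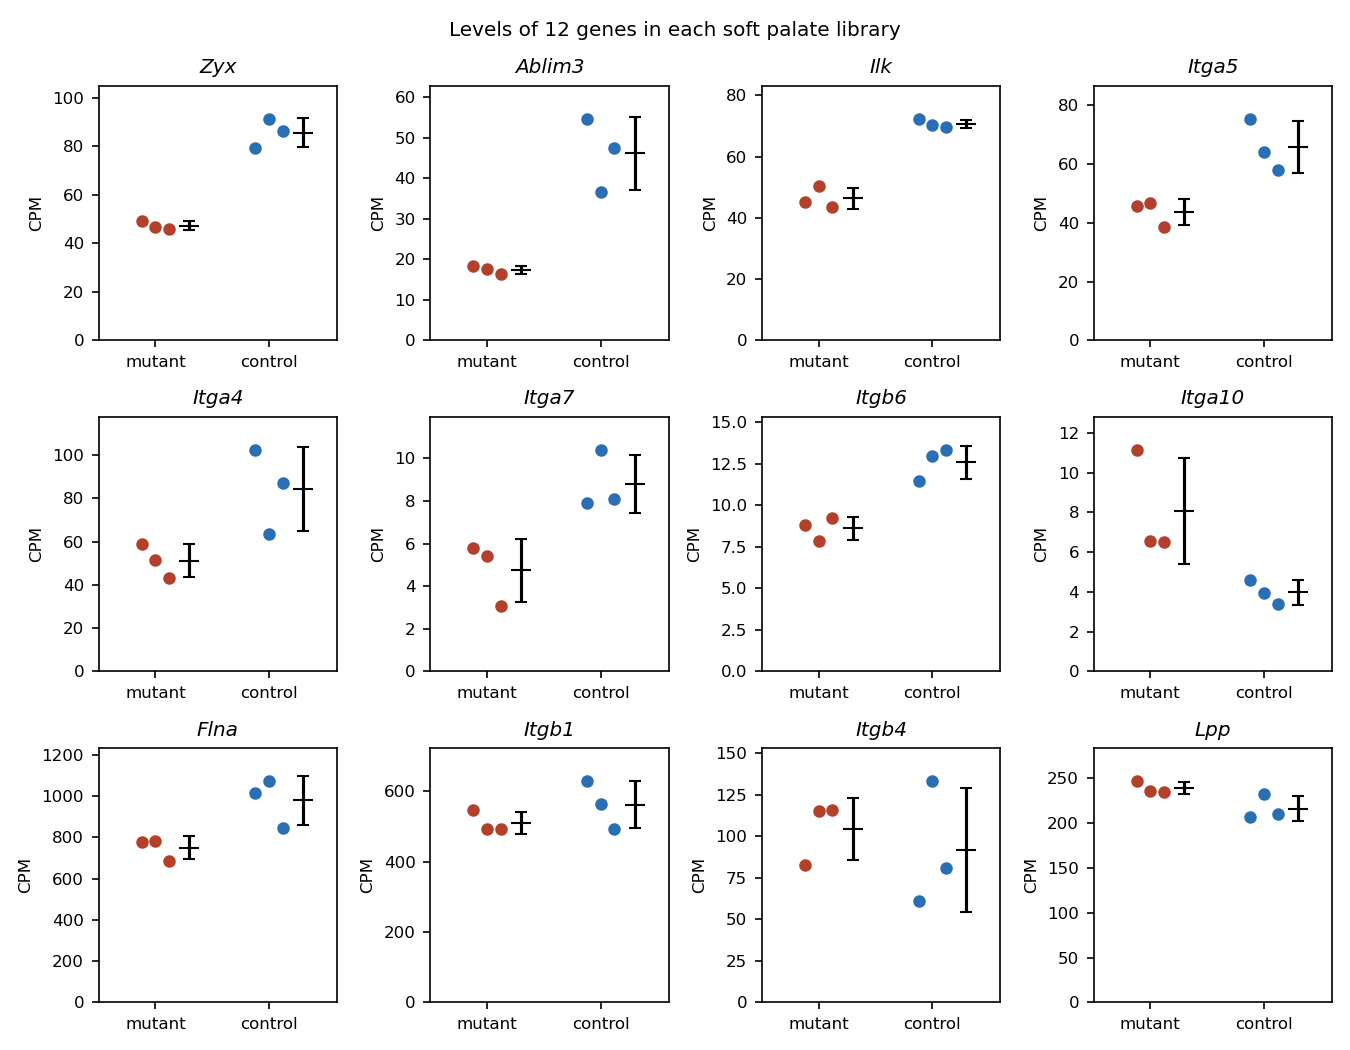
CPM of 12 genes in each library, mutant replicates 5, 6 and 7 (red) left of control replicates 1, 2 and 3 (blue), with the mean and SD of each group (n = 3) as bars. Zyx, Ablim3 and Ilk show tight mutant values under all controls, Itga10 and Lpp lie higher in mutants, and Itgb1 and Itgb4 overlap between the groups.

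Muscle RNA differed between the groups. The 20 skeletal muscle markers, such as Myog and Pax7, summed to 4939, 6114 and 5055 CPM in mutants, against 15559, 7439 and 11272 CPM in controls; 9 of the 20 passed the threshold, all lower in mutants, beside 0.283% of all genes, and none was near 0 in all libraries. The 10 smooth muscle and pericyte markers ranged from 300.4 to 361 CPM in mutants and from 473 to 552 CPM in controls, with 1, Acta2, past the threshold and lower. Without Acta2 the smooth muscle sums overlapped, at 244 to 309.8 CPM in mutants and 299 to 377 CPM in controls, and without Ttn, the most abundant muscle marker, the muscle sums did not, at 1584 to 2189.6 CPM in mutants and 2817 to 5929 CPM in controls. The 12 markers of palatal mesenchyme summed to 924 to 1160.2 CPM in mutants and 1185 to 1445 CPM in controls, with Osr2 the 1 past the threshold. The nearest sums were those of mutant replicate 6 and control replicate 3. Osr2 alone had 19.4 CPM in the former and 49.9 CPM in the latter, so the gap between the sums rests on Osr2. None of these calls was made without mutant replicate 5, 6 or 7 or without control replicate 1 or 3, and without control replicate 2 the muscle count was 17. The part of these cell types in the differences of Zyx, Ablim3, Ilk and the integrins was not tested.

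Within the controls, where genotype does not vary, the muscle sum was lowest in replicate 2 and highest in replicate 1. Of the 44 members with a mean of at least 1 CPM, 6 (13.6%) had that same order, namely Ablim3, Itga4, Fhl1, Tln2, Fermt2 and Parva, close to 14.2% of 18780 genes. Nothing is read from this order for Ablim3 or the others, because their share is close to that of all genes. Zyx had the opposite order, which is also the order of the epithelial sum, as did 12 other members, among them Itgb4, Itga3, Itga7, Fermt1 and Lpp (13 in all, 29.5%, against 21.7% of genes). With 3 libraries these orders are a description only, and Ilk followed neither of them. Across members, control replicate 2 was the highest of the 6 libraries for 16 genes and control replicate 1 for 14, and mutant replicate 7 was the lowest for 23.

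**Figure D4:**
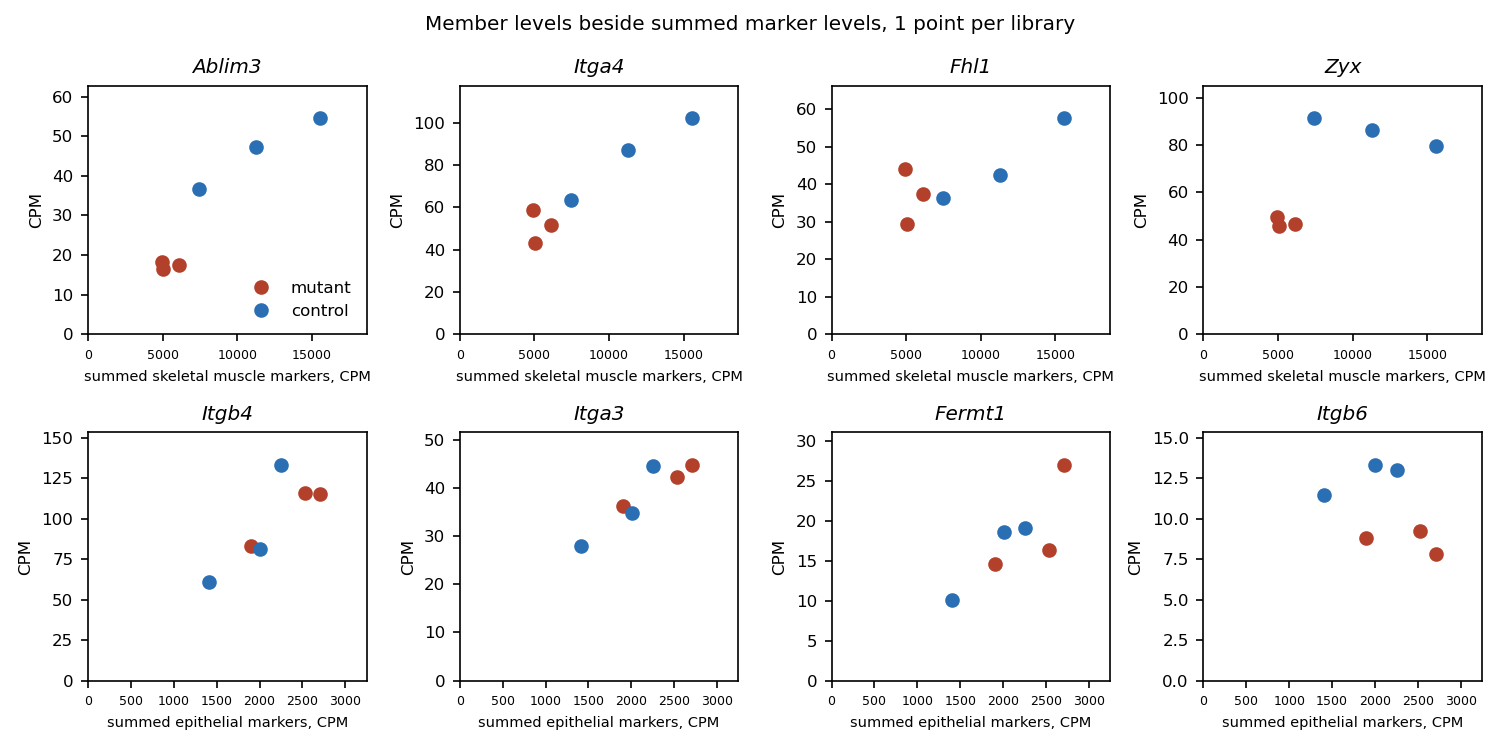
CPM of 8 genes in each library against the summed CPM of 20 skeletal muscle markers (top row) or 12 epithelial markers (bottom row), 1 point per library, mutants in red and controls in blue. In the 3 controls Ablim3, Itga4 and Fhl1 have the order of the muscle sum, as do 13.6% of the members and 14.2% of genes. Zyx has the opposite order. Itgb6 lies lower in every mutant library, and the epithelial sums of the groups overlap.

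Genes around the set were read from lists drawn up by function. Of 46 other focal adhesion genes none passed the threshold in limma (4 passed without control replicate 2), and their median log2 change was -0.16. At an unadjusted p below 0.05 there were 14 (30.4%), 12 of them lower in mutants, beside 21.4% of all genes. Of all 21938 genes 1771 had that p and were lower. The smallest p-values were those of Itgb1bp2, encoding the muscle protein melusin, with 12.1, 13.5 and 13.7 CPM in mutants, against 23.4, 20.5 and 26.9 CPM in controls, and of Flnc, the filamin of muscle, with 166, 166 and 143 CPM in mutants, against 429, 267 and 271 CPM in controls. Both are muscle genes whose mutant libraries lay below all controls. Of 35 matrix ligands of integrins none passed (5 unadjusted, 14.3%, beside 21.4% of all genes), with a median log2 change of -0.14. Tnc, encoding tenascin C, had 286, 307 and 232 CPM in mutants, against 447, 456 and 336 CPM in controls, and Ibsp, encoding bone sialoprotein, had 572, 306 and 215 CPM in mutants, against 46.5, 24.4 and 231 CPM in controls. Ibsp was thus high in control replicate 3 as well, and its groups overlapped. The 6 measured of 8 leukocyte and platelet integrins were low, with a median level of 1.75 CPM, and none passed (0 unadjusted). Itga2b, the platelet fibrinogen receptor subunit, averaged 4.78 ± 0.33 CPM in mutants and 3.73 ± 0.58 CPM in controls, and Itgb7 1.09 ± 0.33 CPM in mutants and 0.62 ± 0.38 CPM in controls (SD, n = 3 each).

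SRF, its MRTF cofactors and the actin and actin-binding genes they regulate formed the 1 list of these with genes past the threshold. Of 25 genes 3 (12%) passed the threshold, all lower in mutants, beside 0.283% of all genes, and 13 (52%) lay lower in every mutant library, beside 10.8% of all genes, with a median log2 change of -0.34. The 3 were actin genes: Acta1 at 122 ± 31.1 CPM in mutants and 341 ± 71.1 CPM in controls, Actc1 at 129 ± 14.5 CPM in mutants and 357 ± 119 CPM in controls, and Acta2 at 56.8 ± 5.42 CPM in mutants and 157 ± 43.9 CPM in controls (SD, n = 3 each). Acta1 and Actc1 encode the actins of striated muscle and are also in the skeletal muscle marker list, and Acta2 is in the smooth muscle list, so the same 3 genes are counted there. None of the 3 passed without mutant replicate 5, 6 or 7 or without control replicate 1 or 3, and without control replicate 2 the list had 7 calls. Srf itself overlapped, with 30.2, 34.3 and 30.9 CPM in mutants, against 33.4, 42.0 and 41.7 CPM in controls.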

How the data were processed

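Per the labels' protocols, RNA of 6 soft palate samples at E14.0 was isolated with a column kit. Per the submitters' processing notes, STAR was the aligner and mm10 the genome build. Library kit, strand, counting and annotation were not given in the sources used here. The authors deposited CPM values with samples as rows, 1 table of 21938 genes and 1 filtered table of 2432 genes with the same values, whose criterion was not given in the sources used here. It holds 7 of the 45 members (15.6%) and 11.1% of all genes. A constant of 0.0001, found in the values, was removed. No column of other samples was present (0). Of low values, 63.8 to 69.6% were whole reads within 0.02 of a read, so whole reads were not recovered and no count model was fitted; depths are estimates from the step of 1 read.

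The members and lists were chosen with earlier results of these data known. Mutant was compared with control on log2(CPM + 1), which understates changes of low genes, by limma 3.58.1 (R 4.3.3), its prior variance following the intensity trend, without filter, two-sided, with Benjamini-Hochberg adjustment over all genes; a gene passed at an adjusted p below 0.05. The design named this fit for normalized values. The test was also run on simulated data in which every gene had the same spread beyond counting error and genes varied independently. That run does not cover spread shared between genes, and nothing is read from it here. Values per library are printed for Zyx, Ablim3, other members that passed, the 10 largest log2 changes at a mean of at least 1 CPM, and the 2 highest members of each role per kilobase; other members were added to complete each role, after their values were seen. From each list of other genes, those that passed and the 2 with the smallest p are named, besides Srf, named after its values were seen. The values of 1 list are not reported here. Exon lengths, positions and overlaps came from GENCODE M21 on GRCm38, the assembly mm10 names, by symbol (21376 genes, 97.4%, matched 1 gene). Log-scale libraries correlated at 0.9809 to 0.9878 within and 0.9705 to 0.9813 between groups, and none were copies. Xist exceeded 100 CPM in 1 library of each group (2 of 6). Alternatives changed the pseudocount, filter, scaling, prior variance and threshold and left out each library; sex as a covariate, marker sums without single genes and alpha shares by the longest transcript were added after the data were seen.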

Additional observations from a re-analysis of the deposited data

How the results depend on the processing

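The number of members past the threshold moved from 3 to 0 with a prior variance without trend and with sex as a covariate, and to 5 at a threshold of 0.1, with Itga4 and Itga5 in addition. Leaving out 1 library gave 0 to 4. Over all genes the count of 105 became 0 without trend (4516 unadjusted p below 0.05, limma), 0 with sex as a covariate (4356 unadjusted), 174 with robust fitting and 999 at a threshold of 0.1. Leaving out 1 library gave 0 to 452: 2 without mutant replicate 7, 452 without control replicate 2 and 0 without any other. A pseudocount of 0.1, a filter at a mean of 1 CPM and median scaling gave 95, 135 and 114 genes, with Zyx, Ablim3 and Ilk among them each time. The cause of these shifts was not tested. The median log2 change over members stayed between -0.24 and -0.11 when 1 library was left out. Of the named members' log2 changes under the alternatives, 235 kept their side of the threshold, 21 lost it, 3 gained it, and 0 that had passed changed sign. The median level per kilobase was 14.5 by the longest transcript, against 10.1. No paired analysis was possible because the groups share no replicate number. Depth limits Lims2 among the members, at under 2 CPM in every library.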

Other observations

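The markers of motile ciliated epithelium, 9 of 10 measured, summed to 317, 280 and 363 CPM in mutants, against 193, 268 and 105 CPM in controls. None passed the threshold in limma, and 3 passed without control replicate 2. At an unadjusted p below 0.05 there were 7 (77.8%), all higher in mutants, beside 21.4% of all genes in either direction. None of the markers of 4 further cell types passed (limma). Endothelial markers summed to 266 to 379 CPM in mutants and 231 to 369 CPM in controls, and macrophage and leukocyte markers to 81.6 to 100.9 CPM in mutants and 101.0 to 111 CPM in controls. Schwann cell and neural markers summed to 137 to 620 CPM in mutants and 362 to 761 CPM in controls, and the 4 measured platelet markers to 10.01 to 11.1 CPM in mutants and 8.80 to 16.7 CPM in controls. At an unadjusted p below 0.05 there was 1 platelet marker and 0 in the others.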
